A study of Drosophila melanogaster with 6 samples.

Results

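Nascent transcription at zygotic genome activation (ZGA) was described in 3 GRO-seq libraries of control (Ctrl) Drosophila melanogaster embryos at stage 5, the cellular blastoderm. They are all the control libraries among the 6 libraries of the series, and every one of the 17753 genes of the count table was taken. The Ctrl embryos carry the genotype code t180. According to the study's methods they came from females that carried the TRiP control line together with the germline driver mat-alpha-Gal4, so the mothers expressed Gal4 in the germline. Staged embryos were picked by hand and pooled for each library, and each library is therefore an average over whole embryos of both sexes and all positions. The labels name the libraries A1, B1 and B2 and do not say what the letters A and B stand for.

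In GRO-seq, isolated nuclei resume transcription for a few minutes with a biotin-labelled nucleotide, and only RNA extended by polymerases already engaged on the DNA is captured. The fly embryo starts development with transcripts laid down by the mother, and its own genome is switched on over the last syncytial nuclear cycles and the long interphase of stage 5, when membranes close around the nuclei. Genes active then include those that pattern the body axes, those that drive cellularization and many genes that every cell uses. The pioneer factor Zelda opens many of the earliest promoters through TAGteam sites, of which CAGGTA is the core.

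The deposited reads assigned to genes numbered 12487166 in Ctrl A1, 24537992 in Ctrl B1 and 20115683 in Ctrl B2, so that 3 reads, taken as the limit of detection, correspond to 0.240, 0.122 and 0.149 CPM, the count scaled to a library total of 1000000. Such limits cover counting error only. At least 1 read fell in 11125 genes of A1, 11573 of B1 and 11646 of B2. Levels between genes are given as density, which is CPM divided by gene length in kilobases, as the mean ± SD over the 3 libraries. The assay does not separate a gene that is active in few nuclei from a gene that carries little polymerase in every nucleus.

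The highest density among the 13845 protein-coding genes belonged to short genes. The leading gene of at least 500 bases was CG4440 (FBgn0040984, chr2L:16329925-16330521), with 3098 CPM per kb in A1, 1756 in B1 and 1704 in B2 (2186 ± 790, n = 3). It was followed by halo (FBgn0001174, chr2L:1517533-1518148), a cofactor that directs lipid droplet transport along microtubules, at 3149 in A1, 1950 in B1 and 1404 CPM per kb in B2 (2168 ± 893). The order of these genes was not settled, since halo led in A1 and B1 and CG4440 in B2. The third and the fourth were CG34214 (1348 ± 722 CPM per kb) and CG14915 (1236 ± 376 CPM per kb). Below 500 bases, Z600, also called frühstart, an inhibitor of mitosis that acts in the blastoderm, reached 1885 ± 672 CPM per kb, with 15.2% of its span shared with another gene on the same strand, and CG13427 reached 1599 ± 413.

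Apart from slam, the promoters shown were picked among the 20 densest genes because a motif that Zelda binds recurred in them. They are not a sample of that list. Each sequence is the 250 bases before the annotated start on the gene's own strand, 5′ to 3′, from the RefSeq copy of the dm6 assembly. Capitals mark CAGGTA or its reverse complement TACCTG, and slam is included as a gene of the same level that has neither.
CG4440: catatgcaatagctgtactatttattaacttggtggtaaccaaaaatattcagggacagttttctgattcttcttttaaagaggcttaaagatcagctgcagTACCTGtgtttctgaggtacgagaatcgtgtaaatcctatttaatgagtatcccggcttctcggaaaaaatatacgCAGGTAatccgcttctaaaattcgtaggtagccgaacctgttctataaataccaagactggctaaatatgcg
halo: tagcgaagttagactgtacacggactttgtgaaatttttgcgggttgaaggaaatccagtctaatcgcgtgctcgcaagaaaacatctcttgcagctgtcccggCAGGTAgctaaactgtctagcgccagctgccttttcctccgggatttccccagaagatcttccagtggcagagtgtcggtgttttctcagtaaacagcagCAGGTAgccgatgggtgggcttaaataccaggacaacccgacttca
CG14915: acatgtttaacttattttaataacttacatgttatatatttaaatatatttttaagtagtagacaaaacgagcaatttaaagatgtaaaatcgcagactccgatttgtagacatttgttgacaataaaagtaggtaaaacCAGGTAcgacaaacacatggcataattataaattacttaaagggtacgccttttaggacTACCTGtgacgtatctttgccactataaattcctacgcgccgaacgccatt
CG10035: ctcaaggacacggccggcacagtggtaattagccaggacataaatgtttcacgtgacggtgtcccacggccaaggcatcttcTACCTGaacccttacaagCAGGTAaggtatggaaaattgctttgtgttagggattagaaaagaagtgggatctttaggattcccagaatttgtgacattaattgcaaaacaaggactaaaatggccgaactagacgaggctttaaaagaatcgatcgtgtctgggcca
CG15480: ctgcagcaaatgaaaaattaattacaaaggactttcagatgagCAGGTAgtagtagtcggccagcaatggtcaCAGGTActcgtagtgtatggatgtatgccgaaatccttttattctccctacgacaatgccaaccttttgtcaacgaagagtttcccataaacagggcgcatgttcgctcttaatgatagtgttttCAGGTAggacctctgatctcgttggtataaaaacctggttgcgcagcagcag
bard: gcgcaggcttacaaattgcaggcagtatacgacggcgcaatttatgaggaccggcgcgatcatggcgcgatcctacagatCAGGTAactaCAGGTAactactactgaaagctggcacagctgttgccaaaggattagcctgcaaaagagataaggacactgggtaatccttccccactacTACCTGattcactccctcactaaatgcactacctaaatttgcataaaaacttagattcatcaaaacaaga
bnk: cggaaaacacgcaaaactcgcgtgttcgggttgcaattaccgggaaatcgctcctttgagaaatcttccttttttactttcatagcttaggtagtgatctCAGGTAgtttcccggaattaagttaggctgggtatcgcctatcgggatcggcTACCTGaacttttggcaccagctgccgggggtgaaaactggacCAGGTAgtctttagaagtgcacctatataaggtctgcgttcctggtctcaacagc
slam: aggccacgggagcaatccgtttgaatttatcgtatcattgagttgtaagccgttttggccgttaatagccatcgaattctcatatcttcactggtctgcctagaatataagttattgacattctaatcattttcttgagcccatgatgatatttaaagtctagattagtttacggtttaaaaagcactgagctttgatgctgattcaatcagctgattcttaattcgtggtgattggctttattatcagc

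CG4440 (chr2L:16329675-16329924, plus strand) and CG14915 (chr2L:11070777-11071026, plus strand) held CAGGTA once in each orientation, at 148 and 72 bases and at 110 and 51 bases before the start. In halo (chr2L:1518149-1518398, minus strand) both copies ran with the gene, at 146 and 46 bases before the start. CG10035 (chr3R:12382692-12382941, minus strand) held copies 168 and 150 bases before the start. CG15480 (chr2L:13225276-13225525, minus strand), bard (chr3R:18080798-18081047, plus strand) and bnk (chr3R:31193112-31193361, plus strand) held 3 copies each, while slam (chr2L:6372138-6372387, plus strand) held none. A wider window, from 250 bases before to 50 after the start, contained the motif in 12 of the 20 densest genes.

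Over all 12974 promoters that could be read in that wider window, CAGGTA occurred on either strand in 6.31% (95% Wilson interval 5.91 to 6.74). Its share was 28.0% (22.2 to 34.6) in the 200 densest protein-coding genes, 9.62% in the next 800, 6.20% in the 4000 after those and 5.49% in all lower ranks. The other motifs followed other courses. The DNA replication-related element (DRE), searched as TATCGATA, was found in 13.0% of the top 200 promoters, was highest at 20.8% in the next 800, stood at 17.4% in the 4000 after those and was at 4.33% in the lower ranks, against 9.50% of all promoters. Searched as TATAAA anywhere in the window, the TATA box was about as frequent in the top 200 (47.5%) as in all promoters (45.9%). When it had to lie 45 to 15 bases before the start, it was found in 15.5% of the top 200, 6.62% of the next 800, 3.65% of the 4000 after those and 11.7% of the lower ranks. The element searched as GAGAG stood in 38.5% of the top 200 promoters and 29.7% of all. Its share was 26.5% in the next 800, 23.8% in the 4000 after those and 32.7% in the lower ranks. A match in a window says nothing on binding, and the intervals cover sampling of promoters only. Each gene was read at the 5′ end of its annotated span, which need not be the start in use. Whether this differs between ranks was not tested.

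**Figure D1:**
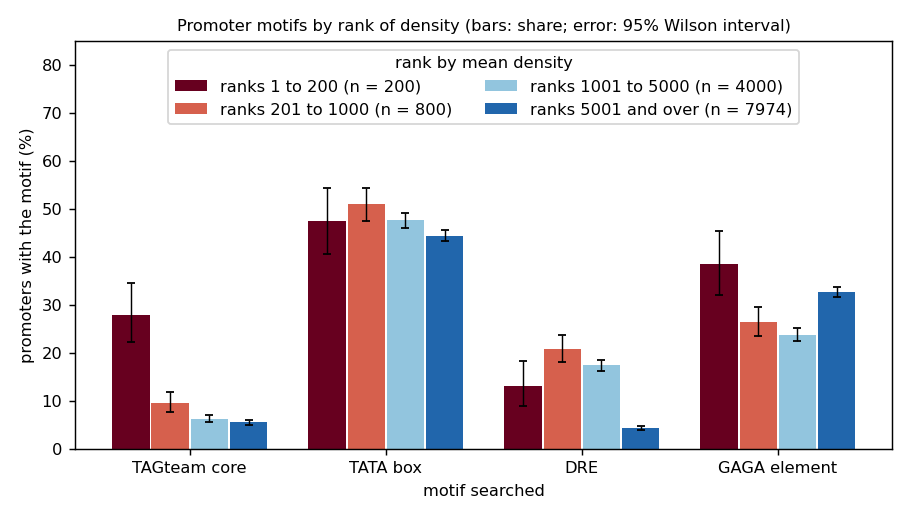
Share of promoters (y axis, percent) that hold each motif (x axis), for protein-coding genes in 4 classes of rank by mean density over the 3 Ctrl libraries. Bars give the share and error bars the 95% Wilson interval; the TAGteam core is found in 28.0% of the 200 densest genes and in fewer with each lower class, down to 5.49%, while the DRE is most frequent in the second class (20.8%).

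The remaining genes among the 20 densest have varied functions. Both slam (863 ± 564 CPM per kb), which directs membrane growth, and bnk (549 ± 430) act in cellularization, where bnk restrains the actin network during furrow ingression. Tom (828 ± 200) and Brd (804 ± 140) encode Bearded family proteins, which inhibit Neuralized and so Notch signalling, and Elba2 (643 ± 301) belongs to a blastoderm complex that acts at chromatin boundaries. The pair-rule gene eve reached 536 ± 154 CPM per kb. Cys (752 ± 295), an inhibitor of cysteine proteases, bard (677 ± 683), link (682 ± 228), Ppa (547 ± 167), an F-box protein, and bnb (530 ± 171) completed the named genes, and alphaTub84B, the ubiquitous alpha-tubulin, stood at 538 ± 28.3. Its 3 libraries, 528 in A1, 570 in B1 and 517 CPM per kb in B2, lay close together. For bard the libraries gave 1459 in A1 against 368 and 203 CPM per kb in B1 and B2, so that its SD exceeded its mean.

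Some of the densest genes are neighbours on the chromosome. halo and CG18132 (551 ± 198 CPM per kb) lie side by side at chr2L:1516795-1518148. Tom (chr3L:14969344-14970306) and Brd (chr3L:14972667-14973198) are neighbours in the Bearded complex, whose members Ocho (493 CPM per kb) and BobA (207) were also dense. CG14915 (chr2L:11071027-11071532) has CG43725 (839 ± 280 CPM per kb, chr2L:11075513-11075962) close by. His2B:CG33908 (1089 ± 436) came from the tandem histone array, whose copies are nearly identical, and is treated with the histone genes below.

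**Figure D2:**
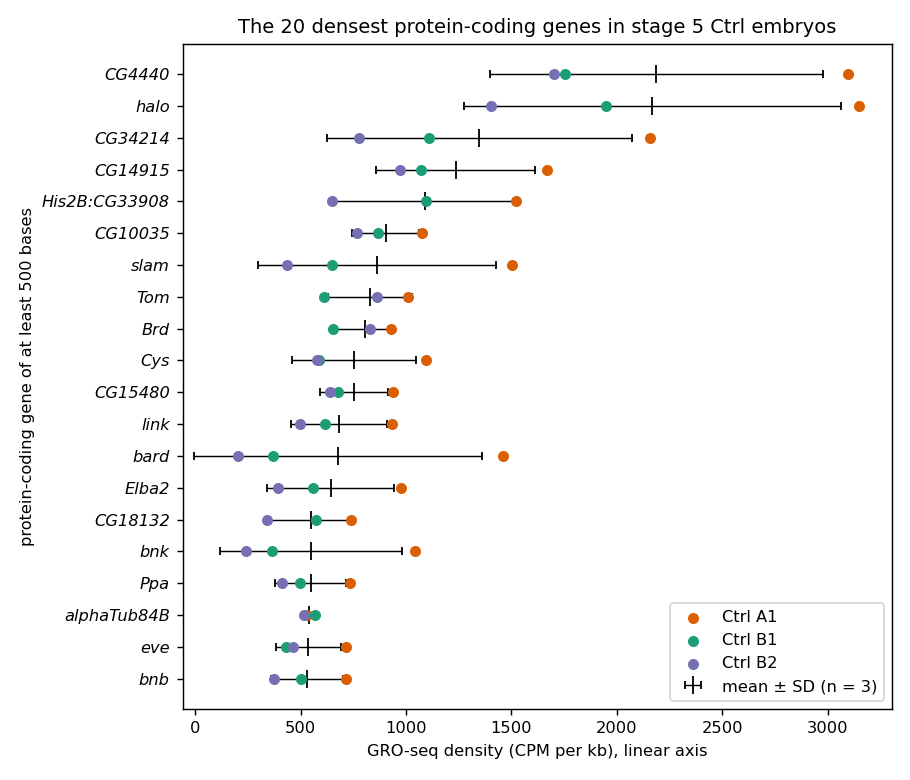
Density of the 20 densest protein-coding genes of at least 500 bases (y axis) in CPM per kb (x axis, linear). Points are the 3 Ctrl libraries, ticks and bars the mean ± SD; A1 lies to the right of B1 and B2 for 19 of the 20 genes, alphaTub84B being the exception, and the spread is widest for halo (1404 to 3149).

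Ranking by density and ranking by the number of reads selected different genes. The 20 genes with most reads had a median length of 40228 bases, against 996 bases for the 20 densest, and slam alone was in both lists. Ptr, a relative of the Hedgehog receptor Patched, held most reads on average, at 5499 CPM in A1, 6213 in B1 and 4472 in B2. It was followed by hth, a homeobox gene spanning 132008 bases with 5877, 5347 and 4736 CPM, and by wech, which encodes a TRIM-NHL protein, with 6207, 5121 and 3553 CPM. The order was not settled, since slam led in A1 with 7357 CPM (3188 in B1 and 2136 in B2) and hth in B2. The density of hth was only 40.3 ± 4.32 CPM per kb, compared with 370 ± 60.1 for Ptr and 452 ± 122 for wech. Others in this list were the transcription factor genes lola (75.1 ± 11.9 CPM per kb), opa (246 ± 26.1) and pan (88.6 ± 27.6), the chromatin remodeller kis (91.3 ± 3.92), the adhesion and junction genes ed (49.6 ± 1.09), Nrt (304), pyd (38.2 ± 4.84), Sdc (32.6 ± 0.484) and Lac (224 ± 49.4), the axon guidance receptor robo2 (100.1 ± 14.5), the Notch ligand Delta (119 ± 3.73), the Wnt antagonist nkd (84.9 ± 3.31) and the actin-binding protein gene Svil (36.6 ± 3.73). jigr1 (215 ± 26), Bacc (521 ± 72.5) and btsz (38.3 ± 10.8) completed it. None of these 20 genes was free of introns, whereas 12 of the 20 densest were.

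**Figure D3:**
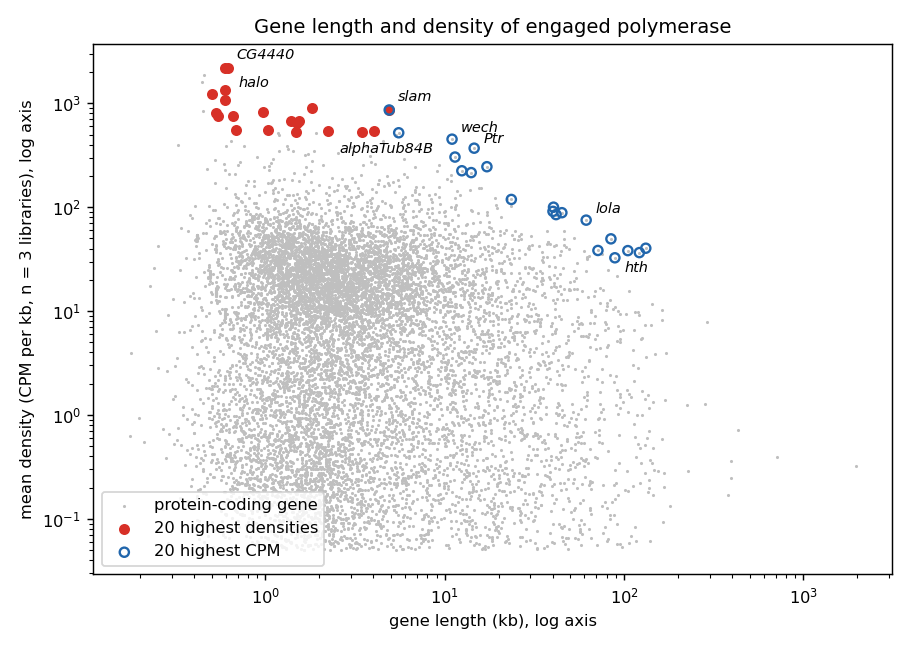
Mean density over the 3 Ctrl libraries (y axis, CPM per kb, log) against gene length (x axis, kb, log) for protein-coding genes with more than 0.05 CPM per kb. Filled red points are the 20 densest genes of at least 500 bases (506 to 4897 bases long) and open blue circles the 20 genes with most reads (4897 to 132008 bases); slam carries both marks.

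Reads were spread over many genes. The top gene held 0.540 ± 0.0875% of reads (n = 3), the top 10 genes 4.54 ± 0.716%, the top 100 22.3 ± 2.28% and the top 1000 64.9 ± 2.77%. Protein-coding genes took 95.0% of reads in A1, 95.5% in B1 and 95.3% in B2. Genes of 10 to 20 kb, 952 in number, received 17.9 ± 0.664% of reads, about as much as the 3913 genes of 2 to 5 kb (18.9 ± 0.560%), and genes under 1 kb received 0.354 ± 0.123% (up to 500 bases) and 2.60 ± 0.264% (500 to 1000 bases). The 200 densest coding genes held 16.0 ± 2.68% of reads, with 18.8% in A1 above 15.7% in B1 and 13.5% in B2.

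To say which genes lay above background, olfactory, gustatory and ionotropic receptor genes, which act in sensory neurons of larvae and adults, were used as a measure of the density expected of silent genes. The 95th percentile of their density was 4.97 CPM per kb in A1, 7.03 in B1 and 6.69 in B2. Above that level in all 3 libraries were 4977 protein-coding genes, 35.9% of the 13845. They held 86.3 ± 0.841% of reads, and their median density was 21.4 CPM per kb in A1, 23.9 in B1 and 26.5 in B2, compared with 1.78, 1.44 and 1.75 CPM per kb for all coding genes. The genes nearest the limit were cic, ERp44 and CG6171 just inside and nrm, Rpt3R and His4:CG33907 just outside. Only 591 genes exceeded 50 CPM per kb in every library, and the 200th densest gene stood at 110.7 CPM per kb. A total of 853 coding genes lie wholly within other genes on the same strand, and all of them had 0 reads in every library, since reads shared between genes were not counted. Such genes, among them Sry-alpha, ind, cup and HisRS, have no measured level here. In the medians and passing shares of genes and lists they nevertheless count as 0 and as not passing, unless stated otherwise.

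Markers of stage 5 mostly lay above the receptor level and those of other stages and tissues mostly did not. nullo, bnk, slam, zen, sna, ftz, eve and Kr lay above the receptor level in each library. The exceptions were Sry-alpha, which could not be counted, and twi, whose annotated span of 62952 bases thinned its reads to 7.79 CPM per kb in A1, 4.95 in B1 and 4.28 in B2. Of 14 follicle cell genes (eggshell and yolk proteins) none was above the level, and 6 had no reads; Yp3 was highest at 4.80 CPM per kb, and Cp18 followed at 3.08. None of 14 muscle genes was above it in all libraries, with Act87E highest at a mean of 7.34 CPM per kb and Mlc2 at 2.14, and none of 11 fat body and hemocyte genes, led by Fbp2 at 1.50 and PPO3 at 0.762. In the 10 neuronal genes elav was the exception, with 22.7 CPM per kb in A1, 42.2 in B1 and 39.1 in B2; the next, nSyb, had 1.87. 2 of 117 cuticle protein genes and 1 of 47 seminal fluid genes passed.

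Among segmentation genes the pair-rule list had the highest median density, followed by gap, segment polarity and Hox genes. All 10 pair-rule genes were above the receptor level, with a list median of 258 CPM per kb in A1, 261 in B1 and 233 in B2. eve and ftz, which alternate in stripes, were highest; ftz had 732, 439 and 385 CPM per kb. odd (333), slp1 (348), hry (255), opa (246) and prd (160) came next, then run at 91.8, slp2 at 26.5 and Ten-m, a transmembrane protein gene of 114820 bases, at 9.85 CPM per kb. Ten-m shares 51.7% of its span with another gene.

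Of the 12 gap and head gap genes 11 were above the level, the median being 152 CPM per kb in A1, 90.2 in B1 and 85.8 in B2. The terminal and trunk gap genes gt (346 ± 126 CPM per kb), tll (257), hkb (208), Kr (199), kni (189) and hb (139) were the densest, while the head genes croc (75.3), ems (71.0), btd (48.5) and oc (37.2) were lower. knrl, a close relative of kni in a gene of 23519 bases, had 23.4, and cnc, at 4.20 CPM per kb, was under the receptor level.

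Segment polarity genes, which act after the pair-rule genes, were mixed, and 8 of 12 passed. ptc, the Hedgehog receptor, had 153 CPM per kb and arm, the beta-catenin of the fly, 127. Values for en (24.5), wg (30.2) and hh (9.96) were lower. Paralogous neighbours differed in density, with 0.286 for H15 against 20.6 for mid and 0.0635 CPM per kb for gsb-n against 54.3 for gsb. For inv, the neighbour of en, a density of 1.46 CPM per kb over a span of 35231 bases corresponded to 51.3 CPM, against 103 CPM for en. Hox genes had medians of 4.47 in A1, 4.13 in B1 and 4.82 CPM per kb in B2. Dfd (11.3 CPM per kb), Antp (9.33) and abd-A (7.83) were the 3 of 8 above the receptor level, and Abd-B (1.10) and pb (0.214) were the lowest. The share that passed, 37.5%, was near the 35.9% of all coding genes, whose median density was 1.70 CPM per kb. Hox genes include long ones, Antp having 960 CPM over 102976 bases, and with exon length the list median was 22.9 CPM per kb. Exon length moved 17 of 26 list medians beyond their spread, among them gap from 109 to 188 and mesoderm from 24.7 to 78.7 CPM per kb.

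Dorsoventral genes ranged widely within each list. In the mesoderm list sna, the repressor that sets the mesoderm border, had 318 CPM per kb, with 401 in A1, 265 in B1 and 287 in B2, and Cyp310a1 had 64.2; 10 of 12 genes passed, and Mef2 (2.80) and twi (5.67) did not. In the neurectoderm D, a Sox factor, had 379 and rho, which activates EGF signalling, 174 CPM per kb, 9 of 12 passed, and sim, a midline gene, was at 4.53. In the dorsal ectoderm zen, a homeobox gene of the amnioserosa, had 365 and tsg, an extracellular BMP regulator, 109 CPM per kb. Of the list 13 of 16 passed, and C15 (0.934) and pnr (5.42) were among those that did not.

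Cell cycle genes and the Bearded and Enhancer of split genes had medians close to that of the gap genes. All 11 cell cycle genes were above the receptor level, and all 11 were among the 10% of coding genes with the highest density. Z600 and trbl (499 CPM per kb), both of which hold back mitosis, led, followed by CycB at 204; stg, the Cdc25 phosphatase, had 66.1 and dup, a replication licensing factor, 56.5. All 9 genes of X counting and dosage compensation passed. sisA (164 CPM per kb) and upd1 (151), both X-linked signals, and dpn (139, with 30.3% of its span shared) were highest, Sxl, the switch gene, had 104 and msl-2 99.7, and tra (46.6) and gro (42.9) were lowest. In the Bearded and Enhancer of split lists 13 of 15 passed, from Tom and Brd down to E(spl)m3-HLH (2.29) and E(spl)m6-BFM (1.08). The proneural genes l(1)sc (183) and ac (130) were dense, whereas ase, in the same complex, was at 0.271 CPM per kb. Among pioneer factor genes opa (246), Clamp (96.2) and zld (89.97) passed, and Trl could not be judged, because 80.5% of it is shared.

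The products of the next genes are supplied by the mother. Of 25 maternal axis and germ plasm genes 7 passed (28.0%, against 35.9% of all coding genes), and the list median was 2.91 CPM per kb in A1, 0.908 in B1 and 2.05 in B2, against 1.78, 1.44 and 1.75 for all coding genes. cact, the inhibitor of Dorsal (67.4), and cad, which has a zygotic phase (56.4), were highest, while dl, at 0.0201, and spz, at 0.0275, had almost no reads; osk had 0.672, bcd 1.21 and nanos 0.553 CPM per kb. Among 9 genes of maternal RNA control and early kinase activity, me31B (104) and brat (58.8) were dense and gnu (0.634) was not.

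**Figure D4:**
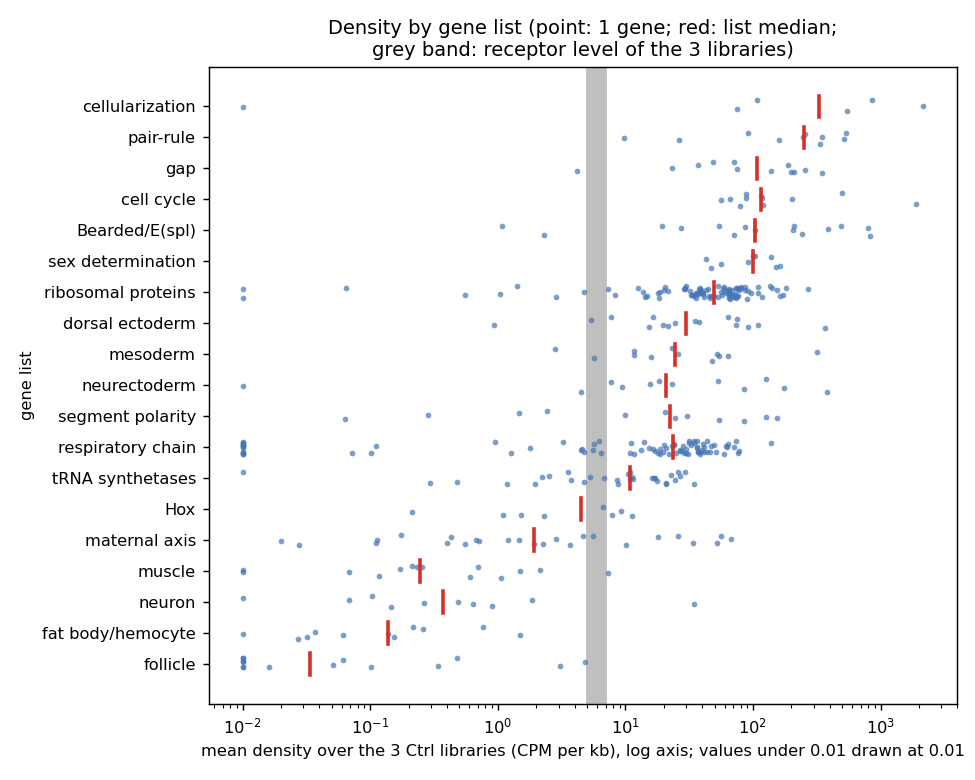
Mean density of each gene over the 3 Ctrl libraries (x axis, CPM per kb, log; values under 0.01 drawn at 0.01) for the members of 19 gene lists (y axis). Red ticks are list medians and the grey band spans the receptor level of the libraries (4.97 to 7.03); cellularization, pair-rule, gap and cell cycle genes lie mostly to its right, and the follicle, muscle, neuron and fat body genes lie to its left except for Act87E (7.34) and elav.

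Genes for general cell functions were widely engaged at middling density. Of 93 cytoplasmic ribosomal protein genes and their paralogs 82 passed, with medians of 55.3 in A1, 41.3 in B1 and 47.2 CPM per kb in B2, from RpL38 (269) and RpL15 (181) down to RpS6 and RpL7-like, which are almost wholly shared with other genes and had 0 reads. Mitochondrial ribosomal protein genes followed with 63 of 72 above the level, led by mRpL34 (78.3 CPM per kb) and mRpS7 (77.0), and respiratory chain genes with 57 of 84, led by ATPsynO (138) and UQCR-14 (77.2). Proteasome genes gave 29 of 48, led by Prosbeta6 (97.2) and Prosalpha6 (85.4); the members at 0 include the paralogs Prosbeta4R1 and Prosbeta4R2. tRNA synthetase genes were lower, with 18 of 31 and medians of 9.52 in A1, 10.9 in B1 and 11.5 CPM per kb in B2, and the highest was GlnRS at 34.8, then AlaRS at 29.2. ValRS-m, for the mitochondrial enzyme, had 0.293 CPM per kb. Of the heat shock genes and their cognates 6 of 14 passed, Hsc70-4 (123) and Hsp83 (41.7), both used without stress, being highest. Inducible Hsp70Aa was at 0.00570 CPM per kb, but Hsp70Ab reached 21.0 and the copies are near identical, so reads may be split between them. These lists passed in every case above the 35.9% of all coding genes, and they were chosen as general functions, so the shares describe them and no test was made.

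Replication-dependent histone genes differed widely between libraries. Their 111 copies lie in the tandem array on chromosome arm 2L, and 15 were above the receptor level in all 3 libraries. With 2 His2B copies left out, the median copy of His4 had 103.7 CPM per kb in A1 against 7.15 in B1 and 42.1 in B2, and that of His3 had 31.5 against 1.77 and 11.1. All 5 families ran in this order, with A1 highest and B1 lowest, so that B1 and B2, which share a letter, also stood apart. The copies His2B:CG33908 (chr2L:21428075-21428669, 1522 in A1, 1093 in B1 and 650.7 CPM per kb in B2) and His2B:CG33868 (chr2L:21537505-21538099, 365, 167 and 146 CPM per kb) were far above the other 21 His2B copies, whose medians were 18.8, 1.37 and 7.27 CPM per kb. Since reads of low mapping quality were not counted and copies are alike, levels of single copies are uncertain; without A1 the list median was 6.538 CPM per kb in place of 15.1.

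Among genes that do not encode proteins, transfer RNA (tRNA) genes held 0.831% of reads in A1, 0.570% in B1 and 0.722% in B2, and 229 of the 312 had a read in each library. The densest genes of these classes were snoRNA:185 (3952 in A1, 4257 in B1 and 4630 CPM per kb in B2), tRNA:Gln-CTG-2-5 (3798, 2097 and 2124), tRNA:Gln-CTG-3-1 (2558 ± 467), snoRNA:Psi28S-3342 (2371 ± 423) and tRNA:Gln-CTG-2-2 (2188 ± 369). The long noncoding RNA gene lncRNA:CR43887 (chr3L:11693135-11693661) had 1694 ± 457 CPM per kb, and tRNA:Tyr-GTA-1-3 (1822 ± 280), tRNA:Gln-CTG-4-1 (1651 ± 521), tRNA:Tyr-GTA-1-5 (1602 ± 191) and snoRNA:Psi18S-176 (1544 ± 229) made up the 10. Densities of genes shorter than a sequencing fragment are not on the same footing as those of longer genes. The 3 glutamine tRNA genes that lie within a few kilobases of each other on 2L are shown in full, since their sequences decide how far their reads can be told apart; capitals mark the positions at which they differ.
tRNA:Gln-CTG-2-5: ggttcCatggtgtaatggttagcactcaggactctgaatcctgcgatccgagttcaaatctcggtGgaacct
tRNA:Gln-CTG-3-1: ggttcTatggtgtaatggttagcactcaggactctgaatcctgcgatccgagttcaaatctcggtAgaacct
tRNA:Gln-CTG-2-2: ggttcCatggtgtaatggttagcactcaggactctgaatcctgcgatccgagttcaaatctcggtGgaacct

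tRNA:Gln-CTG-2-5 (chr2L:2013179-2013250, minus strand) and tRNA:Gln-CTG-2-2 (chr2L:2009155-2009226, plus strand) are identical over 72 bases, so reads from within them cannot be assigned to either. tRNA:Gln-CTG-3-1 (chr2L:2010869-2010940, minus strand) differs from them by C6T and G66A, counted from 1 at the 5′ end of tRNA:Gln-CTG-2-5. Summed over all genes of an acceptor, glutamine came first with 1025 CPM in A1, 791 in B1 and 894 in B2 from 13 genes, then serine with 1039, 648 and 878 CPM from 22 and arginine with 849, 600 and 795 from 27. The order of glutamine and serine was not the same in A1 as in B1 and B2. No read was counted for any of the 13 protein-coding genes of mitochondrial DNA, and none of 23 coding genes on the Y chromosome passed the receptor level.

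By gene structure, genes with introns passed the receptor level more often, at 38.2% of 11714, than genes without, at 23.7% of 2131. Once above it the order turned, with medians of 28.5 in A1, 28.6 in B1 and 34.3 CPM per kb in B2 for genes without introns and 20.8, 23.5 and 25.9 for genes with them. With exon length in place of the span the direction turned again, to a log2 ratio of -0.10. The difference narrowed to a mean of 27.2 ± 3.82 against 24.1 ± 2.91 CPM per kb when only genes of 1000 to 3000 bases were taken. Genes without introns were still higher in each library, at 23.85 against 21.15 in A1, 26.33 against 24.09 in B1 and 31.34 against 26.96 in B2. Genes without introns made up 15.4% of coding genes, 10.1% of those above the level and 26% of the top 200. Passing was commonest at middle length, at 46.1% of genes of 5 to 10 kb, and rarest in genes of up to 500 bases (12.9%) and over 50 kb (18.2%). Part of the shortest classes could not be counted because of overlap.

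By chromosome, reads divided as 19.3% on 2L, 21.0% on 2R, 18.8% on 3L, 23.8% on 3R, 13.4% on X and 2.59% on 4, each a mean of the libraries. Genes passed at nearly the same rate on X (36.2% of 2163) as on the large autosomes (35.9% of 11562). Among genes that passed, the X median was lower, at 17.9 in A1, 19.1 in B1 and 20.9 CPM per kb in B2, against 22.2, 24.8 and 27.7 on the autosomes, and this held in every library. X carried 16 of the 200 densest genes (8.00%), against 15.6% of all coding genes. Counting every coding gene, including those without signal, turned the direction, with X medians of 2.11, 1.66 and 2.10 against 1.72, 1.38 and 1.66 CPM per kb. Chromosome 4, a small and largely heterochromatic chromosome, had the highest share of passing genes, 62.0% of 79, and its first 100 kb, with pan, ci and PlexB, had the highest mean of 1294 windows of 100 kb with 4988 CPM in A1, 9113 in B1 and 7701 in B2. It led in B1 and B2 only, and in A1 it lay below the other windows named here. Next came the windows of lola and psq (6841 CPM, chr2R:10500001-10600000), Ptr and EcR (6535, chr2R:6100001-6200000), wech (5877, chr2R:7400001-7500000) and kis and smo (5366, chr2L:200001-300000).

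How far the 3 libraries agree was tested by setting A1 against B1 and B2 with edgeR's quasi-likelihood test on 10528 genes. With 1 library against 2, the letter and the library cannot be told apart, and p-values rest on the spread between B1 and B2 alone. Across those genes Spearman's correlation of density was 0.925 between A1 and B1, 0.947 between A1 and B2 and 0.969 between B1 and B2, a description over genes that share length and sequence. B1 and B2 shared 90 of their 100 densest coding genes, A1 and B1 74, and A1 and B2 71. The test called 740 genes (7.03%), of which 440 (4.18%) were higher in A1 and 300 (2.85%) lower, and 2049 had an unadjusted p under 0.05. With library totals in place of TMM factors the calls were 149 higher and 150 lower, and the median log2 difference of all genes moved to -0.15 from -0.03. With the size factors of DESeq2 in edgeR they were 275 higher and 167 lower, and with DESeq2 218 and 100, so the excess of higher calls was lost with library totals only.

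Among genes averaging 100 counts or more, the 5 with the largest increase in A1 were Elba1, Elba3, nullo, yl and CG18269. Elba1 had 501 CPM per kb in A1 against 18.7 in B1 and 26.7 in B2 (log2 fold change 4.59 ± 0.23 SE, edgeR adjusted p = 4.7e-44), and its partner Elba3 had 570 against 34.4 and 37.1 (4.11 ± 0.24, adjusted p = 6.4e-37). nullo, which stabilises the furrow at the onset of cellularization, had 200.3 in A1 against 11.7 and 13.6 CPM per kb in B1 and B2 (4.11 ± 0.22, adjusted p = 3.2e-41). The gene yl encodes the yolk protein receptor of the oocyte and had 516 reads in A1 against 19 in B1 and 24 in B2, and CG18269 had 1936 against 93 and 183 reads. In each of these the A1 library stood apart from both others.

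Of the 20 densest genes 6 were called, all higher in A1, compared with 4.18% of all genes. The 20 were chosen on the mean of the same libraries, A1 included, so genes high in A1 were favoured and nothing is read from this count. They were bard (log2 fold change 2.44, edgeR adjusted p = 5.4e-08), bnk (1.88, 2.1e-07), slam (1.56, 0.032), CG34214 (1.295, 0.0028), Elba2 (1.14, 0.017) and Cys (1.02, 0.0034); slam and Elba2 were not called with the size factors of DESeq2 in edgeR (adjusted p = 0.077 and 0.058), and bard was not called by DESeq2 (0.098). DESeq2 also called CG4440, halo, CG14915, link, Ppa, eve and bnb, all higher in A1. With library totals CG4440, halo, CG14915, link and eve were called too. By list, 3 of 5 cellularization genes and 8 of 16 dorsal ectoderm genes were higher in A1, against 4.18% of all genes. So were 5 of 9 genes of X counting and 4 of 12 gap genes, and none in these lists was lower. Other lists also held genes higher in A1, among them 12 of 88 ribosomal protein genes (1 lower), 2 of 10 pair-rule genes and 2 of 12 mesoderm genes. The dorsal ectoderm calls included scw (3.24, adjusted p = 2.1e-29) and zen2 (2.09, 7.2e-16). For the 11 cell cycle, 8 Hox and 30 tested tRNA synthetase genes the median log2 fold changes were 0.07, 0.10 and -0.00067. With the size factors of DESeq2 in edgeR, gt, a gap gene, and D lost their calls as well (adjusted p = 0.066 and 0.052). Medians were 0.56 for the 227 tRNA genes tested, 2.20 for the 111 histone copies and 0.23 for the 88 tested ribosomal protein genes, as log2 fold changes of A1 over B1 and B2. Histone copies are nearly identical and are not separate measurements.

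Among maternal axis genes 4 of 22 tested were higher in A1, against 4.18% of all genes. These were cad (106 CPM per kb against 36.1 and 26.6), tor, the terminal receptor, with 192 reads against 18 and 28, osk with 70 against 1 and 19, and swa with 37 against 0 and 0, the last at least 21.8-fold higher by CPM when 3 reads per library are set as the floor. Their densities in A1, cad aside, were all below the receptor level, and the part of such reads in the other differences was not tested. The summed level of follicle cell genes was 13.1 CPM in A1, 11.4 in B1 and 15.4 in B2. Only 2 of those 14 genes had enough reads to be tested.

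The genes most lower in A1 had few reads. CG17490, 80.8% of which is shared, had 0 reads in A1 against 180 in B1 and 144 in B2, at least 30.2-fold lower with the same floor, and CG13744, lncRNA:CR45638, CG13707 and CR12460 had 6, 9, 15 and 11 reads in A1 against 149 to 296 in B1 and B2. On chromosome 4, 20 of 102 tested genes were lower in A1, against 2.85% of all genes, none was higher, and the median log2 fold change was -0.57. Among its genes Zip102B had 23.0 CPM per kb in A1 against 49.1 in B1 and 46.1 in B2 (log2 fold change -0.94, edgeR adjusted p = 0.00098). The Notch target E(spl)mgamma-HLH was lower as well, with 30.4 in A1 against 90.5 and 93.0 CPM per kb (-1.48, adjusted p = 9.8e-07).

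**Figure D5:**
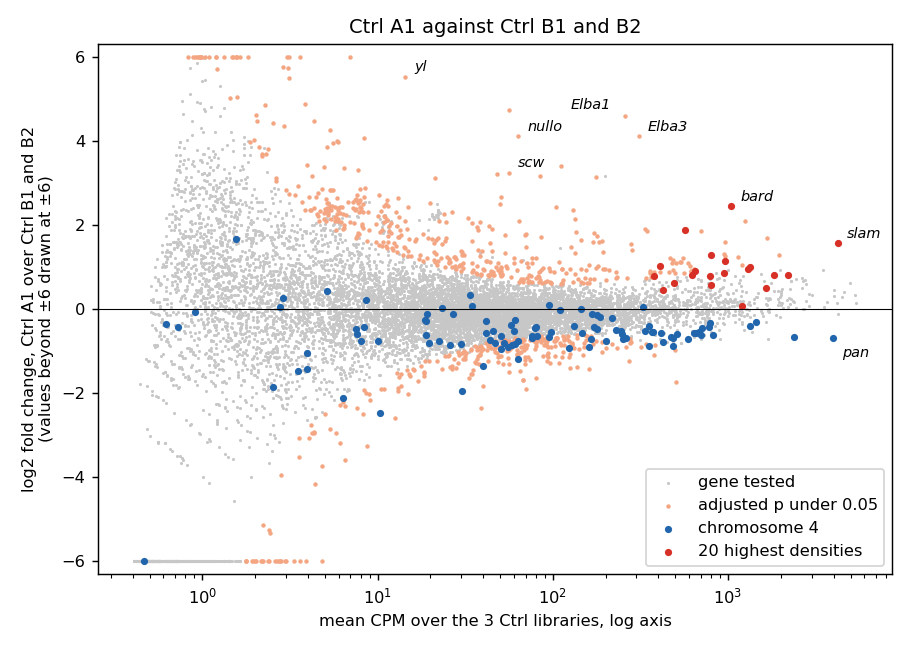
Log2 fold change of Ctrl A1 over Ctrl B1 and B2 (y axis, edgeR, drawn within ±6) against mean CPM (x axis, log) for the 10528 genes tested; orange points have an adjusted p under 0.05. The 20 densest genes (red) all lie above 0 and chromosome 4 genes (blue) mostly below it, with a median of -0.57.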

How the data were processed

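GRO-seq reads of stage 5 embryos were counted per gene by the authors. Per the labels and methods, adapters were trimmed with cutadapt 2.5, UMIs handled with UMI-tools 1.0, reads aligned with Bowtie2 to dm6 and counted by strand with featureCounts on alignments that were not deduplicated. The deposited counts are whole reads per gene and are not normalized, and PCR copies are included. The deposited table also gives each gene's length, which equals the annotated span for 99.3% of genes. The sample columns of the knockdown were not analysed here.

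Counts of the 3 Ctrl libraries were divided by the library total and by length (CPM per kb). Symbols and coordinates came from the Ensembl BDGP6 annotation, which matched 17626 of 17753 genes, and promoters from the RefSeq dm6 genome, in which 99.8% of annotated start codons read ATG. The libraries were compared with edgeR 4.0.16 (R 4.3.3), using TMM scaling, robust quasi-likelihood fits and Benjamini-Hochberg adjustment, over genes averaging 10 counts or more. Tested on simulated data of 10528 genes, this fit recovered 65.0% of 200 genes changed by 2 on the log2 scale. Of its calls 7.14% were wrong. Apart from those genes and depth, the simulated libraries shared the same means, with dispersions estimated from these data. These shares therefore do not give the error among the 740 calls. DESeq2 1.42.0 served as an alternative. The methods describe the libraries as biological replicates.

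Genes named were the 20 with the highest mean CPM, the 20 densest coding genes of at least 500 bases, the 10 densest of other classes, the 2 highest and 2 lowest of each list, the 5 most changed in each direction averaging 100 counts or more, and the 5 richest windows; further genes were named after their values were seen. The gene lists and rules were chosen with earlier results of these data known.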

Additional observations from a re-analysis of the deposited data

How the results depend on the processing

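The count of 740 genes that differed between A1 and the B libraries was 442 with the size factors of DESeq2 used in edgeR, 299 with library totals and 318 with the DESeq2 Wald test; the counts without a filter beyond 1 read and with a mean of at least 50 reads were within 1.5 times of it. The share of tested genes over 2-fold apart was 21.8%, and 22.4% to 22.5% with B1 or B2 left out, for which no test was possible; between B1 and B2 it was 14.8%. Of the 20 densest genes, 11 remained when exon length replaced the span, which also moved 17 of 26 list medians beyond their spread, and 18 with any 1 library left out. The top 100 genes held 22.3% of reads, 21.4% to 23.6% with 1 library left out, and 4.16% when genes of all classes, tRNA and snoRNA genes among them, were ranked by density (10.03% for coding genes alone). The 4977 genes above the receptor level became 2336 at the 99th percentile and were 5016 to 5300 with 1 library left out. Over genes above the receptor level, the log2 ratio of median densities, genes without introns over genes with introns, was 0.38, moved to 0.17 for genes of 1000 to 3000 bases and turned to -0.10 with exon length. The log2 ratio of X over autosomes was 0.30 over all coding genes, -0.36 over genes above the receptor level and -0.53 with means. CAGGTA fell to 18.4% of the top 500 and 17.5% of the top 200 in a window of 100 before to 50 after the start, where TATAAA gave 28.0% and GAGAG 23.5%; over all promoters that window held them in 3.16%, 24.1% and 18.2%. With 1 library left out CAGGTA was found in 24.0% to 31.5% of the top 200. The cause was not tested.

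Without A1 the median of the cellularization list was 212 CPM per kb in place of 348, and that of histone genes 6.538 in place of 15.1. Leaving out wholly overlapped genes, an alternative chosen after seeing the data, moved 3 list medians beyond their spread and raised the passing share to 38.3%. The cellularization median rose from 348 to 549 CPM per kb, within its SD of 238 between libraries. The passing counts became 57 of 78 respiratory chain, 29 of 45 proteasome, 18 of 30 tRNA synthetase and 9 of 11 neurectoderm genes. No paired analysis was possible because only control libraries were compared, and the replicate numbers within them name no shared source. Reads shared between overlapping genes, near-identical copies and depth (3 reads are 0.240 CPM in A1) limit low and overlapping genes.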
